A study of Homo sapiens with 4 samples.

Results

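The WNT signaling genes of OVCAR5 cells were compared between cells carrying a hairpin against FOXK2 and cells carrying a control hairpin. The group comprised every gene symbol in the count tables that names a WNT ligand (19 genes) or a Frizzled receptor (10 genes), together with 20 coreceptors, transducers, transcription factors and inhibitors of the pathway chosen by name, which gave 49 of 56655 symbols. Earlier results of these data were known when these members were chosen. OVCAR5 is an established human ovarian cancer line labeled as high grade serous and ascites-derived, and all 4 libraries were poly(A) RNA from it. Cells had been transduced with a nontargeting control shRNA (shCtrl, 2 libraries) or with a single shRNA directed at FOXK2 (shFOXK2, 2 libraries), as stable lines selected with puromycin. The series calls the samples of each group biological duplicates, and no source states whether they came from separate transductions, so that p-values measure the spread between these libraries only.

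WNT proteins are secreted, lipid-modified ligands that bind a Frizzled receptor and, for the canonical branch, the coreceptor LRP5 or LRP6. Receptor engagement recruits Dishevelled (DVL) and stops the destruction complex of AXIN, APC and GSK3B from marking β-catenin (CTNNB1) for degradation, after which β-catenin joins TCF/LEF factors on DNA. Several genes that these factors switch on, among them AXIN2, NKD1, RNF43 and ZNRF3, feed back to restrain the pathway, and AXIN2 is a widely used readout of its activity. FOXK proteins have been described as binding partners of Dishevelled that carry it into the nucleus.

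Libraries held between 14284005 and 21950873 counts, and 3 counts, taken as the detection floor, corresponded to 0.134 to 0.211 CPM, the read count scaled to library size with TMM factors. Group levels are means ± SD (n = 2). FOXK2, the targeted gene, had 1796 and 1499 counts in shCtrl against 1086 and 1084 in shFOXK2, or 86.9 ± 9.10 and 67.9 ± 11.9 CPM. Both shFOXK2 libraries lay below both controls, but the log2 fold change of −0.36 (SE 0.25) was not distinguished from the replicate spread by the edgeR quasi-likelihood test (adjusted p = 0.257) and was −0.02 (adjusted p = 0.930) with an offset on the A content of transcripts. Of the ovarian serous markers, PAX8 was present at 351, 335, 156 and 162 counts, in the order shCtrl 1 and 2 and shFOXK2 1 and 2, whereas WT1, SOX17, ESR1 and EMX2 had at most 3 counts in any library. MUC16, which encodes the CA125 antigen, had 397, 145, 0 and 8. Of the gastrointestinal markers, CDX2 (230, 214, 126 and 125 counts) and KRT20 (4676, 3762, 1816 and 2685) were clearly detected, CDH17 (16, 12, 14 and 17), LGALS4 (3, 1, 15 and 16) and VIL1 (5, 3, 3 and 7) were sparse, and CDX1 was at 0. Of the epithelial markers, CDH1 had 459, 260, 13 and 24 counts (log2 fold change −4.02, adjusted p = 5.12e-06), whereas EPCAM, KRT8, KRT18 and KRT19 were abundant and had log2 fold changes of −0.47 to 0.36, none past the threshold. Of 10 markers of fibroblasts, leukocytes and endothelium, CD14 (389, 358, 124 and 168 counts), PECAM1 (154, 90, 9 and 29), CDH5 (76, 33, 0 and 0) and PDGFRB (127, 87, 2 and 8) fell, COL1A1 (324, 215, 226 and 229) did not pass, and PTPRC, CD3E, COL3A1, DCN and VWF had at most 7 counts in any library. CDH5, PDGFRB and MUC16 passed the expression filter through the shCtrl libraries alone, and LGALS4 through the shFOXK2 libraries alone, and therefore had to differ. Of all tested genes 22.7% were lower in shFOXK2. The part of these markers in the WNT results was not tested.

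Lower transcripts predominated among the WNT genes in shFOXK2 cells. The members that fell were 6 ligands, the Frizzled receptors FZD7, FZD2 and FZD5, the coreceptor LRP5 and CTNNB1. All 4 feedback inhibitors and both Dickkopf genes of this group also fell, while APC and FZD3 were the members that rose. Of the 49 members, 37 passed the expression filter. Among these, 17 were lower and 2 were higher in shFOXK2 with an adjusted p below 0.05, that is 45.9% and 5.41%, and their median log2 fold change was −0.64. Over all 16417 tested genes 48.4% were called, 22.7% lower and 25.7% higher, and the median log2 fold change was 0.04. The groups did not overlap for 29 of the 37 members (78.4%), close to the 75.4% of all tested genes. RNF43, WNT10A, WNT11 and WNT6 passed the filter through the shCtrl libraries alone and therefore had to differ. Where each library was required to hold 10 counts or more, 30 members could be tested, of which 11 were lower and 3 higher, against 21.6% lower and 22.5% higher of all genes so filtered, and the median of the members was −0.30. In bulk RNA, fewer cells expressing a gene and less RNA per cell cannot be told apart.

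**Figure D1:**
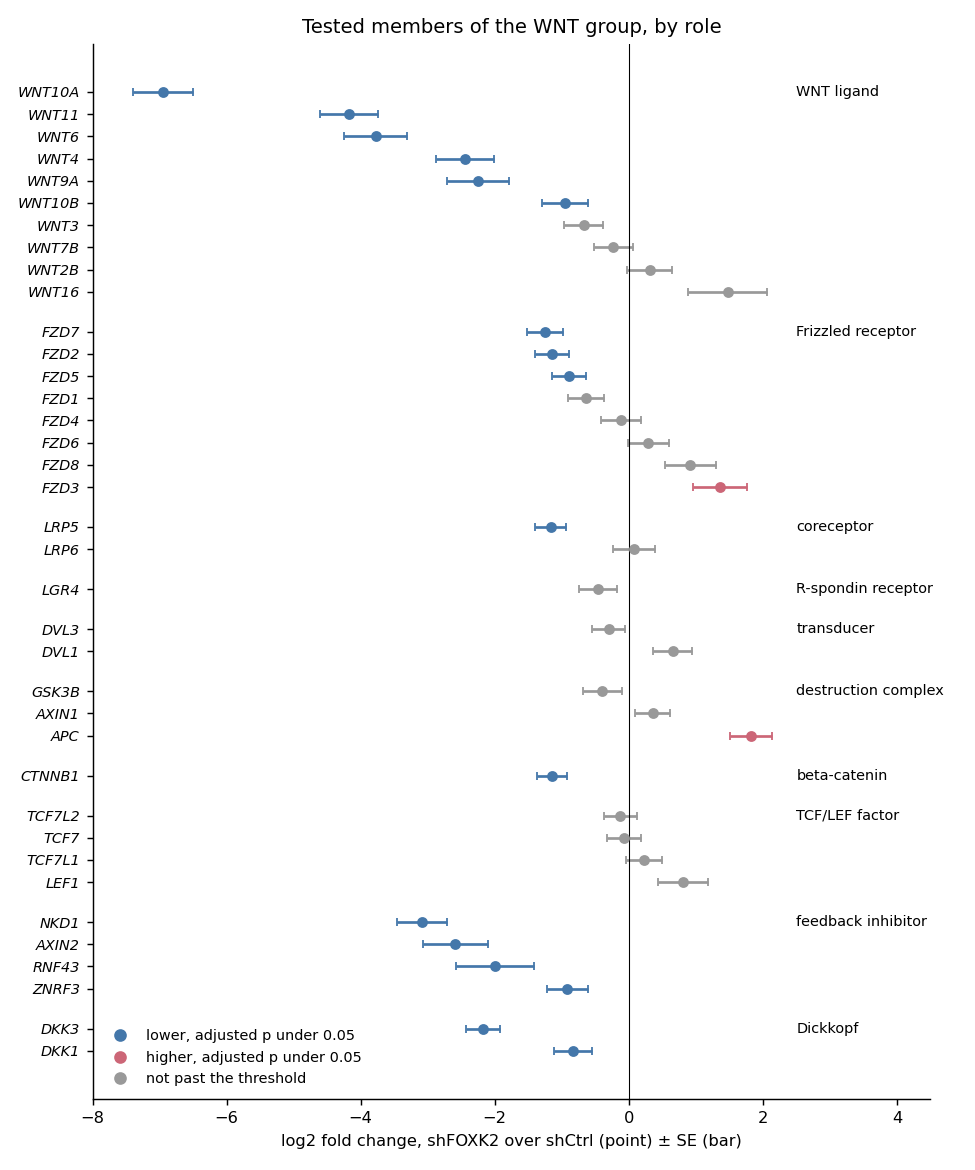
Log2 fold change of shFOXK2 over shCtrl (horizontal axis) for the 37 tested WNT pathway members, grouped by role, with bars of 1 SE. Blue points were lower (17 genes) and red points higher (2 genes) with an adjusted p below 0.05 by the edgeR quasi-likelihood test. Gray points did not pass.

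Among the ligands, WNT10A was nearly lost from shFOXK2 cells, WNT11, WNT6, WNT4 and WNT9A fell several-fold, and WNT10B fell less, whereas WNT7B and WNT3 did not pass the threshold. Of the 19 ligand genes 10 were tested, and 6 of these were lower and 0 higher by the edgeR quasi-likelihood test, beside 22.7% lower and 25.7% higher of all tested genes, but WNT10A, WNT11 and WNT6 are among those that passed the filter through shCtrl alone. At an unadjusted p below 0.05, WNT3 was lower as well and WNT16 higher, and DESeq2 called 0 ligands higher. WNT10A (ENSG00000135925.9, hg38 chr2:218880852-218899581, plus strand), a ligand of the canonical branch, had 600 and 568 counts in shCtrl against 2 and 6 in shFOXK2. Its level in CPM was 31.1 ± 6.00 in shCtrl and 0.235 ± 0.134 in shFOXK2 (log2 fold change −6.95, SE 0.45, adjusted p = 4.24e-07). The pooled ratio was 123, with a 95% exact interval for counting error of 62.4 to 287. Pooled ratios, here and below, compare shCtrl with shFOXK2. Each group entered as its summed counts divided by its summed TMM-scaled library sizes. The value moved to −7.75 without shFOXK2 replicate 2 and to −6.56 without shFOXK2 replicate 1.

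WNT6 (ENSG00000115596.4, chr2:218859805-218874233, plus strand) lies upstream of WNT10A on the same strand, with a gap of 6618 bases and 0 protein-coding genes between them in GENCODE v44. It had 102 and 94 counts in shCtrl against 7 and 5 in shFOXK2, with no overlap between the groups (log2 fold change −3.77, SE 0.47, adjusted p = 4.27e-05). The annotated WNT3 and WNT9B genes on chromosome 17 lie 46 bases apart on opposite strands, and WNT9B had 0, 0, 0 and 4 counts. WNT10B and WNT1 on chromosome 12 lie 6586 bases apart, also on opposite strands. WNT10B had 148 and 89 counts in shCtrl against 50 and 51 in shFOXK2 (log2 fold change −0.95, SE 0.34, adjusted p = 0.0350), while WNT1 had 2, 0, 0 and 1. The WNT10B call was lost with the replicate number as a block (adjusted p = 0.0573), with DESeq2, with either composition offset (−0.61 for each), without shCtrl replicate 1 and without shFOXK2 replicate 2.

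The 250 bases before the RefSeq start of these neighboring genes, whose transcripts both fell, are shown in lower case from assembly GRCh38.p14. They were searched for the FOXK2 recognition sequence TGTTTAC and for the TCF/LEF core CTTTGAT on both strands. Neither sequence was found in either window.

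WNT6, chr2:218859555-218859804, plus strand: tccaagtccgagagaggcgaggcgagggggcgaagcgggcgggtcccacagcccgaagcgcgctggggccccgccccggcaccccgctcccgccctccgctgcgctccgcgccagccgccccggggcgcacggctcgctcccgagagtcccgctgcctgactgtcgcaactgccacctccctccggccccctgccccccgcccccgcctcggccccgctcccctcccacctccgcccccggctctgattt

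WNT10A, chr2:218880602-218880851, plus strand: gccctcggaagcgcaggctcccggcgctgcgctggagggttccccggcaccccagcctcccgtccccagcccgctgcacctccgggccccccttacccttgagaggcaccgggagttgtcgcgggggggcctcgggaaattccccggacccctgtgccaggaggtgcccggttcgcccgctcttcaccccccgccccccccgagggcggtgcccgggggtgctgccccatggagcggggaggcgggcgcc

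RefSeq promoter windows were matched for 35 of the 49 members. No window was matched for AXIN2, NKD1, ZNRF3, WNT7B, WNT10B, WNT11, FZD2, FZD3, FZD6, FZD7, FZD10, LRP6, LGR5 or DKK3. Those genes were not searched, so RNF43 was the only feedback inhibitor searched. TGTTTAC occurred in 2 of them (5.71%), against 2.98% of all 35116 promoter windows of this length, and CTTTGAT in 0 of 35, against 2.26% of all windows. Both windows with TGTTTAC are shown because they hold the sequence bound by the targeted factor, with the match in capitals. In WNT5B it began 26 bases before the RefSeq start used, on the plus strand. In TCF7 it began 23 bases before the RefSeq start used and was read on the minus strand, so that its reverse complement is printed. The GENCODE v44 genes begin upstream of these windows, at chr12:1529891 for WNT5B and chr5:134114681 for TCF7, so both windows lie inside the annotated genes. WNT5B was too sparse for the test, at 14 and 9 counts in shCtrl against 2 and 3 in shFOXK2, and TCF7, described with the TCF/LEF factors, did not pass the threshold. A match of letters is a description and not evidence of binding.

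WNT5B, chr12:1616806-1617055, plus strand: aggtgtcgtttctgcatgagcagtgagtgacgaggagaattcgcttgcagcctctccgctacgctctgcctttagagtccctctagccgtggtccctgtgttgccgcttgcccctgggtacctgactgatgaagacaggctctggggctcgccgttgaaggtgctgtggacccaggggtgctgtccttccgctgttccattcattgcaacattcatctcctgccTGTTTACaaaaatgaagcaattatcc

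TCF7, chr5:134115363-134115612, plus strand: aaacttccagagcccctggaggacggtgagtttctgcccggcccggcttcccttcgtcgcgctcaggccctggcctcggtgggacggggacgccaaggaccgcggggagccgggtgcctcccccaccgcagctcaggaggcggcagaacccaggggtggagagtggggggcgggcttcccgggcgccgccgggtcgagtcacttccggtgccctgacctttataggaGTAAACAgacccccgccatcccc

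WNT11 (ENSG00000085741.14, chr11:76186325-76210736, minus strand), a ligand best known for noncanonical signaling, had 159 and 123 counts in shCtrl against 6 and 7 in shFOXK2. The log2 fold change was −4.18 (SE 0.43, adjusted p = 1.15e-05) and stayed between −4.27 and −4.14 whichever library was left out. WNT4, a ligand with a role in the female reproductive tract, had 131 and 118 counts in shCtrl against 25 and 13 in shFOXK2 (log2 fold change −2.44, SE 0.44, adjusted p = 0.000561). WNT9A had 59 and 42 counts against 5 and 13 (log2 fold change −2.25, SE 0.46, adjusted p = 0.00145). The shCtrl and shFOXK2 libraries did not overlap for any of these genes, although the shFOXK2 replicates stood at 1.76 and 0.714 CPM for WNT4 and at 0.351 and 0.714 for WNT9A. The log2 fold change of WNT4 ran from −3.22 without shFOXK2 replicate 1 to −1.93 without shFOXK2 replicate 2, and that of WNT9A from −2.91 without shFOXK2 replicate 2 to −1.90 without shFOXK2 replicate 1.

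Of the ligands not past the threshold, WNT7B had 1503, 1350, 1176 and 843 counts, in the order shCtrl 1 and 2 and shFOXK2 1 and 2, and its groups overlapped in CPM (67.4 and 84.1 against 82.7 and 46.3). Its log2 fold change of −0.23 (SE 0.29, adjusted p = 0.538) turned to 0.11 with the A-content offset and ran from −0.73 without shFOXK2 replicate 1 to 0.10 without shFOXK2 replicate 2. WNT3, with 354, 293, 156 and 189 counts, differed by −0.68 on the log2 scale (SE 0.28, adjusted p = 0.0650), or by −0.81 without shCtrl replicate 1 (adjusted p = 0.0484). WNT2B, at 103, 64, 78 and 95 counts, and WNT16, at 17, 2, 22 and 21, had log2 fold changes of 0.31 (adjusted p = 0.462) and 1.47 (adjusted p = 0.0536). The shCtrl libraries of WNT16 differed widely, and its log2 fold change was 3.32 without shCtrl replicate 1 (adjusted p = 0.00838) and 0.74 without shCtrl replicate 2 (adjusted p = 0.425). It was also called with DESeq2 size factors, no filter, the exact test, the replicate block and without shFOXK2 replicate 2. WNT2B shares 2665 exonic bases with ST7L on the opposite strand, and the counting is not stated to have used strand, so reads of that stretch could not be told apart.

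**Figure D2:**
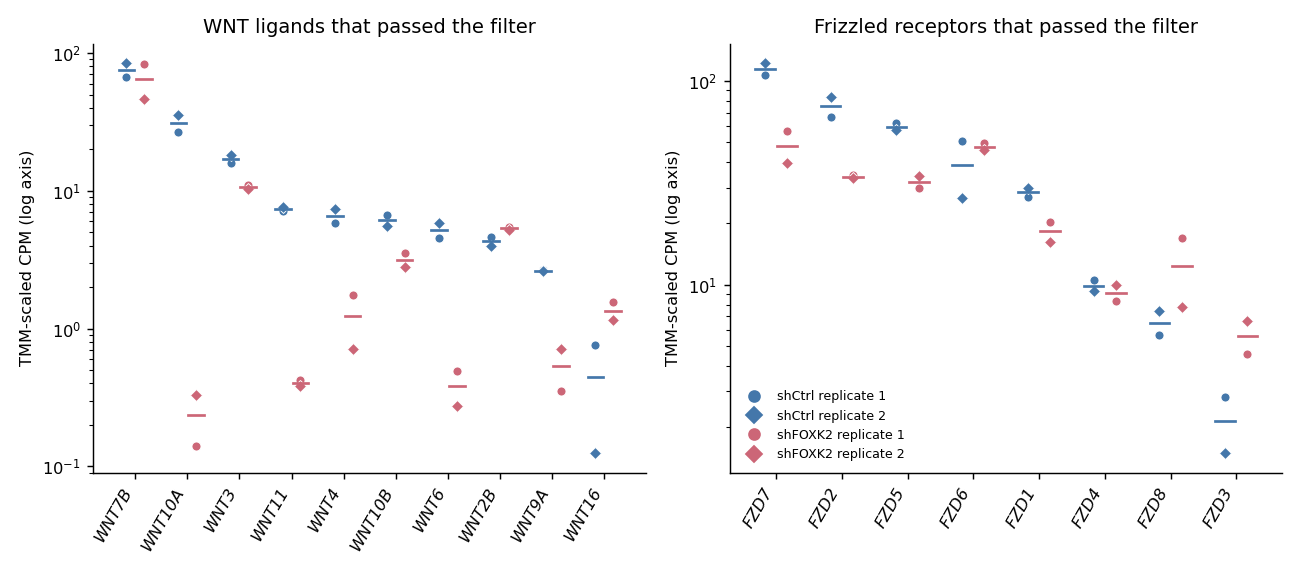
TMM-scaled CPM (vertical log axis) of the tested WNT ligands and Frizzled receptors in each library, with genes ordered by their shCtrl mean. Blue marks shCtrl and red shFOXK2, circles and diamonds are replicates 1 and 2, and short lines are group means. WNT10A dropped from 26.9 and 35.4 CPM to 0.141 and 0.330, while WNT7B overlapped between the groups.

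The remaining 9 ligands did not pass the filter. WNT5A had 19 and 8 counts in shCtrl against 0 and 4 in shFOXK2, a pooled ratio of 5.71 (95% exact interval 1.99 to 22.4), and WNT5B had a pooled ratio of 3.89 (1.45 to 13.1). Both are typical noncanonical ligands, and their levels in shFOXK2 lay near the floor. WNT1, WNT3A, WNT7A, WNT8A, WNT8B and WNT9B had at most 4 counts in any library. WNT2 had 0 counts in all libraries, which allows a level of up to 0.134 to 0.211 CPM.

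To set ligands side by side, CPM were divided by the length of the canonical GENCODE transcript in kilobases. On this scale WNT7B and WNT10A were the leading ligands in shCtrl, at 17.1 and 21.3 CPM per kilobase for WNT7B and 13.1 and 17.2 for WNT10A. The summed level of all 19 ligands was 47.7 and 57.2 CPM per kilobase in shCtrl and 28.1 and 18.2 in shFOXK2. WNT7B made up 35.8% and 37.2% of that sum in shCtrl and 74.7% and 64.6% in shFOXK2, although its own level was not distinguished between the groups. WNT10A made up 27.4% and 30.1% in shCtrl and 0.244% and 0.883% in shFOXK2. WNT3, the next ligand in shFOXK2, held 11.9% and 17.4% there and 10.1% and 9.70% in shCtrl.

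**Figure D3:**
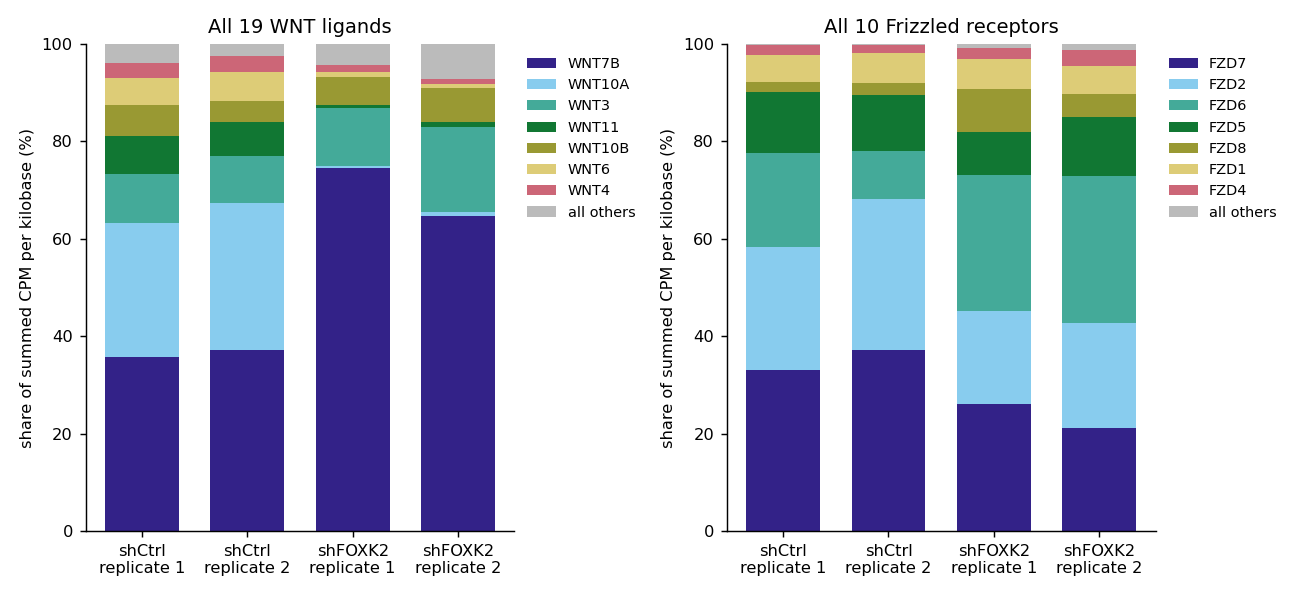
Share of the summed CPM per kilobase (vertical axis, percent) held by single WNT ligands (left) and Frizzled receptors (right), as a stacked bar for each library with the smaller genes pooled in gray. WNT7B took 35.8% and 37.2% of the ligand sum in shCtrl and 74.7% and 64.6% in shFOXK2, and FZD6 took 19.4% and 9.99% of the Frizzled sum in shCtrl and 27.9% and 30.1% in shFOXK2.

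Of the Frizzled receptors, the serpentine membrane receptors of WNT proteins, 8 of 10 genes were tested, with 3 lower and 1 higher. Over all tested genes 48.4% were called, 22.7% lower and 25.7% higher. FZD7, FZD2 and FZD5 fell to about 0.421, 0.450 and 0.537 of control, FZD3 rose, and FZD1, FZD4, FZD6 and FZD8 did not pass the threshold. FZD7 (ENSG00000155760.3, chr2:202033855-202038441, plus strand) had 2396 and 1957 counts in shCtrl against 812 and 717 in shFOXK2 (log2 fold change −1.25, SE 0.26, adjusted p = 0.00165). FZD2 had 1492 and 1344 counts against 490 and 607 (log2 fold change −1.15, SE 0.25, adjusted p = 0.00224). FZD5 had 1387 and 921 counts against 426 and 624 (log2 fold change −0.90, SE 0.25, adjusted p = 0.00963). All 3 kept their shFOXK2 libraries below both controls, and the FZD5 value was −0.56 with the A-content offset and lost the call without shFOXK2 replicate 1 (adjusted p = 0.0643).

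FZD3, a receptor of planar polarity signaling in axons, had 63 and 24 counts in shCtrl against 65 and 121 in shFOXK2 (log2 fold change 1.36, SE 0.40, adjusted p = 0.0125). It was 0.37 (adjusted p = 0.356) with an offset on GC content and 0.92 (adjusted p = 0.123) without shCtrl replicate 2. FZD6 showed the same uneven controls, at 1137 and 428 counts in shCtrl against 706 and 831 in shFOXK2, and its log2 fold change of 0.29 (adjusted p = 0.449) turned to −0.17 without shCtrl replicate 2 and to −0.39 with the GC offset, and was 0.80 and past the threshold without shCtrl replicate 1 (adjusted p = 0.0315). FZD1 had 604, 479, 290 and 295 counts and a log2 fold change of −0.64 (adjusted p = 0.0669). FZD8 had 126, 119, 241 and 142 counts and a log2 fold change of 0.92 (adjusted p = 0.0592), with CPM of 5.65 and 7.41 in shCtrl and 16.9 and 7.80 in shFOXK2, and it was called higher in 8 alternatives, without shFOXK2 replicate 2 (1.35) among them. FZD4, whose exons share 1399 bases with PRSS23 on the opposite strand, had 235, 149, 118 and 181 counts and a log2 fold change of −0.12 (adjusted p = 0.771) that turned to 0.22 with the A-content offset. FZD10 had 1 count in a single library and FZD9 had 0 in all.

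Summed over all 10 Frizzled genes, the level was 70.6 and 71.6 CPM per kilobase in shCtrl and 47.7 and 40.6 in shFOXK2. FZD7 and FZD2 led in shCtrl, with 33.2% and 37.1% of the sum for FZD7 and 25.1% and 31.0% for FZD2. In shFOXK2 they held 26.1% and 21.1%, and 19.1% and 21.7%, and FZD6 held 27.9% and 30.1%, the largest share in both libraries.

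The coreceptors LRP5 and LRP6 had different values. LRP5 (ENSG00000162337.12, chr11:68312591-68449275, plus strand) had 11284 and 8711 counts in shCtrl against 3027 and 4637 in shFOXK2, falling from 524 ± 26.1 to 234 ± 29.7 CPM (log2 fold change −1.16, SE 0.23, adjusted p = 0.00117). LRP6 had 1150 and 408 counts in shCtrl against 525 and 809 in shFOXK2 (log2 fold change 0.08, SE 0.32, adjusted p = 0.861), and its sign turned with no filter, with the GC offset, without shCtrl replicate 2 and without shFOXK2 replicate 2. Both shFOXK2 libraries of LRP6 lay between the 2 controls. Per kilobase, LRP5 exceeded LRP6 in each library, at 97.7 and 105 against 5.03 and 2.48 CPM per kilobase in shCtrl and 41.1 and 49.2 against 3.6 and 4.34 in shFOXK2.

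LGR4 and LGR5 are receptors for R-spondins, which amplify WNT signaling by removing RNF43 and ZNRF3 from the membrane. LGR4 had 6750, 2711, 2105 and 3545 counts, and with the shCtrl libraries at 303 and 169 CPM its log2 fold change of −0.46 (SE 0.29) did not pass (adjusted p = 0.1996), but did with the GC offset (adjusted p = 0.0381) and without shCtrl replicate 2 (adjusted p = 0.00706). LGR5, a marker of intestinal stem cells, did not pass the filter. It had 21 and 6 counts in shCtrl against 0 and 1 in shFOXK2, a pooled ratio of 22.8 with a 95% exact interval for counting error of 3.76 to 934.

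Of the Dishevelled genes, whose products relay the signal from Frizzled, DVL1 and DVL3 did not pass the threshold. DVL1 had 1631 and 1404 counts in shCtrl against 2342 and 1610 in shFOXK2 (log2 fold change 0.66, SE 0.29, adjusted p = 0.0789). The shFOXK2 libraries of DVL1 stood at 165 and 88.4 CPM, the lower of which was just above the higher control at 87.5. DVL1 was called higher with the A-content offset (0.91, adjusted p = 0.0112), with the GC offset (0.69, adjusted p = 0.0344), with the crossed pairing of replicates (adjusted p = 0.0426) and without shFOXK2 replicate 2 (1.00, adjusted p = 0.00977), and was 0.11 without shFOXK2 replicate 1. DVL3 had 3499, 2638, 2216 and 1904 counts (log2 fold change −0.30, SE 0.25, adjusted p = 0.339), or 0.03 with the A-content offset. DVL2, which belongs to the wider list of pathway genes, had 1553, 1336, 709 and 733 counts and fell (log2 fold change −0.76, SE 0.25, adjusted p = 0.0240). Whether the 3 Dishevelled genes differed from each other was not tested.

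In the destruction complex, APC rose and AXIN1 and GSK3B did not pass. APC (ENSG00000134982.18, chr5:112707518-112846239, plus strand), the scaffold whose loss initiates most colorectal tumors, had 295 and 117 counts in shCtrl against 554 and 618 in shFOXK2. Its level in CPM was 10.3 ± 4.20 in shCtrl and 36.4 ± 3.53 in shFOXK2 (log2 fold change 1.82, SE 0.32, adjusted p = 0.000478). Its canonical transcript is 33.9% A, the highest of the tested members, and with the A-content offset the value was 0.43 and was not called (adjusted p = 0.140). AXIN1, the limiting scaffold of the complex, had 1224, 949, 1233 and 1078 counts (log2 fold change 0.36, adjusted p = 0.281, 0.71 with the A-content offset, adjusted p = 0.0146, and 0.55 with the GC offset, adjusted p = 0.0374). GSK3B, the kinase that marks β-catenin, had 1715, 738, 752 and 742 counts (log2 fold change −0.39, adjusted p = 0.281), with shCtrl replicate 1 above the other 3 libraries at 76.9 CPM against 40.8 to 52.9. Its log2 fold change was −0.01 without shCtrl replicate 1 and −0.79, past the threshold, without shCtrl replicate 2 (adjusted p = 0.0245).

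CTNNB1, which encodes β-catenin (ENSG00000168036.18, chr3:41194741-41260096, plus strand), fell to 0.452 of control. It had 10346 and 7399 counts in shCtrl against 3181 and 3536 in shFOXK2, or 462 ± 2.01 and 209 ± 20.8 CPM (log2 fold change −1.15, SE 0.23, adjusted p = 0.00117). The shCtrl libraries were nearly equal, at 464 and 461 CPM, and both shFOXK2 libraries lay far below them. Leaving out any library kept the value between −1.28 and −1.08, and with the A-content offset it was −0.87 (adjusted p = 0.00318). β-Catenin is controlled mainly through the stability of the protein, which was not measured here.

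The 4 TCF/LEF genes, which encode the DNA-binding partners of β-catenin, included none past the threshold by the edgeR quasi-likelihood test, with 0 at an unadjusted p below 0.05 and 0 called by DESeq2. TCF7L2, a main TCF factor of epithelia, had 2448, 1609, 1177 and 1992 counts (log2 fold change −0.13, adjusted p = 0.694). TCF7 had 739, 627, 517 and 591 counts (log2 fold change −0.07, adjusted p = 0.846), and TCF7L1, often a repressor, had 401, 271, 302 and 355 (log2 fold change 0.22, adjusted p = 0.518). LEF1 had 34, 32, 45 and 54 counts (log2 fold change 0.81, SE 0.38, adjusted p = 0.0926). LEF1 (1.16, adjusted p = 0.0180) and TCF7L1 (0.58, adjusted p = 0.0475) were called higher with the A-content offset, and TCF7 and TCF7L2 had positive values there.

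All 4 feedback inhibitors were lower in shFOXK2, the role with the lowest median log2 fold change (−2.30). That median lay between the values of AXIN2 and RNF43. RNF43 passed the filter through the shCtrl libraries alone and therefore had to differ. Neither gene could be tested where a minimum count was required in every library. The rank of this role therefore cannot be separated from the filter. NKD1, which binds Dishevelled (ENSG00000140807.7, chr16:50548396-50649249, plus strand), had 265 and 168 counts in shCtrl against 22 and 20 in shFOXK2. Its log2 fold change was −3.09 (SE 0.37, adjusted p = 3.36e-05), and it stayed between −3.37 and −2.88 whichever library was left out. NKD2, of the wider list, had 50, 36, 47 and 34 counts and did not pass (log2 fold change 0.19, adjusted p = 0.719). AXIN2 (ENSG00000168646.14, chr17:65528563-65561648, minus strand), a scaffold of the destruction complex, had 89 and 65 counts against 4 and 18, or 4.02 ± 0.0423 against 0.635 ± 0.5004 CPM (log2 fold change −2.59, SE 0.49, adjusted p = 0.000789). Both control libraries held nearly the same level of AXIN2, whereas the shFOXK2 libraries differed, and the log2 fold change moved to −3.83 when shFOXK2 replicate 2 was left out and to −2.04 when replicate 1 was. AXIN2 shares 1316 exonic bases with another protein-coding gene model on the same strand.

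RNF43 and ZNRF3 encode membrane ubiquitin ligases that remove Frizzled and LRP proteins from the cell surface. ZNRF3 had 294 and 189 counts in shCtrl against 105 and 107 in shFOXK2 (log2 fold change −0.92, SE 0.31, adjusted p = 0.0255). The call was lost with the A-content offset (−0.58, adjusted p = 0.0864), with the GC offset (−0.58), and without shCtrl replicate 1 or shFOXK2 replicate 2. RNF43 was sparse, at 26 and 13 counts against 2 and 6 (log2 fold change −2.003, SE 0.58, adjusted p = 0.0119). It was not called by DESeq2 (adjusted p = 0.107), without shCtrl replicate 1 (adjusted p = 0.158) or without shFOXK2 replicate 1 (adjusted p = 0.0573), and it shares 4326 exonic bases with another protein-coding gene model on the same strand.

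Both Dickkopf members also fell, while DKK2 and DKK4, of the wider list, had at most 2 counts in any library and were not tested. DKK1, a secreted antagonist that binds LRP5 and LRP6 and is itself a WNT target, had 3066 and 2148 counts in shCtrl against 1394 and 998 in shFOXK2 (log2 fold change −0.83, SE 0.28, adjusted p = 0.0265). With controls at 137 and 134 CPM and shFOXK2 at 98.0 and 54.8, the value rested on shFOXK2 replicate 2: without it the log2 fold change was −0.50 and not called (adjusted p = 0.250), and without shFOXK2 replicate 1 it was −1.33. DKK3 (ENSG00000050165.19, chr11:11956207-12009769, minus strand), a divergent family member that does not act through LRP6, had 2163 and 1678 counts against 346 and 371 (log2 fold change −2.17, SE 0.26, adjusted p = 3.05e-05). DKK3 shares 5681 exonic bases with USP47 on the opposite strand, and USP47 itself had 1012, 391, 1294 and 1704 counts and was higher in shFOXK2 (log2 fold change 1.40, adjusted p = 0.00182). The part of shared reads in either value was not tested.

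**Figure D4:**
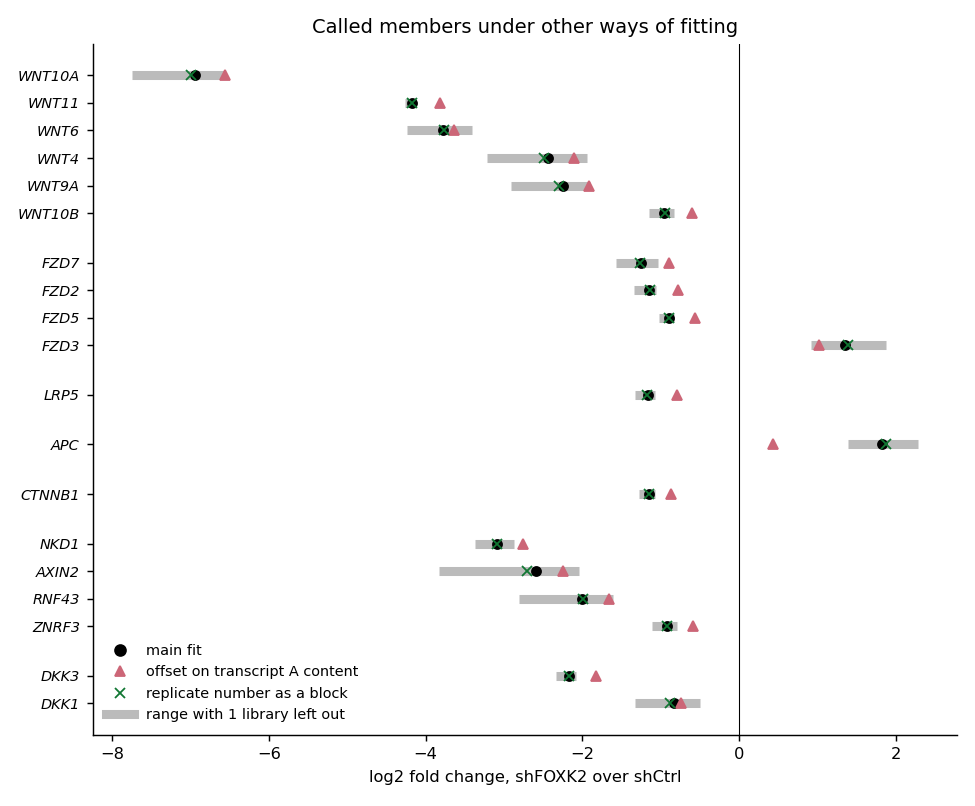
Log2 fold change of shFOXK2 over shCtrl (horizontal axis) for the 19 called members. Black points are the values in the text, red triangles those with an offset on transcript A content, green crosses those with the replicate number as a block, and gray bars the range over 4 fits with 1 library left out. All 19 keep their sign in these fits, and APC moves most with the offset, from 1.82 to 0.43.

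Base composition moved with some of these values. Over the 37 tested members, which share the same libraries, Spearman's rho of transcript A content was 0.37 with the log2 fold change, 0.70 with the difference of shCtrl replicate 1 from replicate 2, and −0.26 with that of the shFOXK2 replicates. The uneven controls of LRP6, FZD6, GSK3B and LGR4 belong to transcripts with 27.4% to 29.8% A, against a median of 24.0% for the tested members and 26.0% for all tested genes with a value. DKK1 and WNT2B, at 27.9% and 27.6% A, lay in the same range with closer controls. Their shCtrl libraries stood at 137 and 134 CPM for DKK1 and 4.62 and 3.99 for WNT2B. With the A-content offset 21 members were called, 16 of them among the 19 and all 16 in the same direction. APC, WNT10B and ZNRF3 dropped out, and AXIN1, DVL1, FZD8, LEF1 and TCF7L1 were then higher. The part of composition in these results was not tested further.

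A list of 65 other WNT pathway genes, also chosen with earlier results of these data known, held 50 that were tested. Of these, 23 (46.0%) were lower and 2 (4.00%) higher, beside 22.7% and 25.7% of all tested genes. Their median log2 fold change was −0.61. Of the planar polarity genes in the list 6 of 8 were lower and 1 higher, and of the alternative receptors and coreceptors 3 of 5 tested were lower and 1 higher. CELSR2, CELSR1 and CELSR3, atypical cadherins of this branch, had log2 fold changes of −2.61, −1.79 and −1.69 (adjusted p = 2.12e-05, 8.19e-05 and 0.000291), and PRICKLE2 had −2.17 (adjusted p = 0.000274). DAAM1 was the planar polarity gene that rose (0.90, adjusted p = 0.0421), and PRICKLE1 did not pass (0.73, adjusted p = 0.0931). Among receptors, ROR2, a tyrosine kinase receptor for WNT5A, had 302 and 255 counts in shCtrl against 27 and 59 in shFOXK2 (log2 fold change −2.50, SE 0.36, adjusted p = 0.000113), whereas its paralog ROR1 had 379 and 207 against 339 and 737 and was the only receptor of the list to rise (log2 fold change 1.11, adjusted p = 0.0102), though not without shFOXK2 replicate 2 (0.64). GPC4, a glypican, fell by 2.08 on the log2 scale (adjusted p = 4.57e-05).

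Of the genes that make and release WNT ligands, NOTUM and PORCN fell and WLS did not pass. PORCN, the acyltransferase that attaches the lipid, had 678 and 601 counts in shCtrl against 248 and 173 in shFOXK2 (log2 fold change −1.34, adjusted p = 0.00384). WLS, the carrier that takes WNT to the surface, had 2031, 1636, 1176 and 1356 counts (log2 fold change −0.30, adjusted p = 0.322). NOTUM, a secreted enzyme that removes the lipid and a feedback target, had 62 and 37 counts against 7 and 11 (log2 fold change −2.19, adjusted p = 0.00131). The antagonists SFRP5 (−1.78, adjusted p = 0.00104) and KREMEN1, a receptor for Dickkopf (−1.81, adjusted p = 0.000270), were lower on the same scale. The other tested antagonists of the list, SFRP4 (0.18, adjusted p = 0.769), KREMEN2 (−0.16, adjusted p = 0.699) and APCDD1 (−0.82, adjusted p = 0.142), did not pass. In the nucleus and in β-catenin turnover, BCL9L (−2.13, adjusted p = 4.48e-05), the corepressor TLE2 (−1.31, adjusted p = 0.00267) and FBXW11, which recognizes phosphorylated β-catenin (−1.14, adjusted p = 0.00178), were lower. Of 14 tested nuclear cofactors in the list, 7 were lower, 0 higher and 7 not called. Of 10 genes of the destruction complex and turnover, 2 were lower, 0 higher and 8 not called. Over all tested genes 22.7% were lower and 25.7% higher.

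Genes often used as readouts of β-catenin and TCF transcription, also chosen with earlier results of these data known, gave a mixed picture. Of 21, 18 were tested, with 5 lower (27.8%) and 3 higher (16.7%), beside 22.7% and 25.7% of all tested genes, and a median log2 fold change of −0.45. The share called, 44.4%, was near the 48.4% of all tested genes. This list did not include AXIN2, NKD1, RNF43, ZNRF3, DKK1 and NOTUM, which are named above as targets and were called lower. MMP7 and SP5 passed the filter through the shCtrl libraries alone and therefore had to differ. MMP7, a matrix protease, had 488 and 392 counts in shCtrl against 6 and 3 in shFOXK2 (log2 fold change −6.33, SE 0.45, adjusted p = 7.61e-07). TNFRSF19 (−2.14, adjusted p = 0.00143), SP5 (−1.80, adjusted p = 0.00753) and MYC (−1.05, adjusted p = 0.00516) were lower, and SP5 was not called by DESeq2 (adjusted p = 0.0625) or without shCtrl replicate 2 (adjusted p = 0.0610). FOSL1, an AP-1 subunit, had 2897 and 2728 counts against 14988 and 9343 (log2 fold change 2.39, adjusted p = 7.91e-05), and SOX4 rose by 1.02 (adjusted p = 0.00462) but was not called without shFOXK2 replicate 2 (0.72). PPARD (−0.86) and BIRC5 (0.86) were the other called genes. CCND1 and CD44, targets shared with many other pathways, had log2 fold changes of 0.29 (adjusted p = 0.361) and −0.01 (adjusted p = 0.976).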

How the data were processed

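Poly(A) RNA libraries (NEBNext Ultra II) were sequenced single-end at 50 bases, aligned to hg38 with STAR 2.5.2 and counted with HTSeq. The authors deposited raw read counts per gene symbol for each of the 4 libraries. The strand setting and annotation are not given in the sources used here. Groups and replicate numbers came from the sample titles. The members and lists were chosen with earlier results of these data known.

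Counts were filtered (filterByExpr), scaled by TMM and tested 2-sided with the quasi-likelihood functions of edgeR 4.0.16 (R 4.3.3) over all tested genes, with Benjamini-Hochberg adjustment and a threshold of 0.05. This test gave each adjusted p unless another is named. SE was obtained from the F statistic, as the absolute log2 fold change over its root. With 2 libraries per group no permutation of labels can reach the threshold. Positions, lengths and composition came from canonical transcripts of GENCODE v44, matched for 63.1% of symbols and 49 members, and 84.6% of tested genes had a composition value. Composition offsets were lowess fits (span 0.2) for each library. Alternatives are described in the closing section, DESeq2 1.42.0 among them. Named were each called member, the tested ligands, receptors and core components, and the called list genes with an absolute log2 fold change of at least 1, up to 12 per list in order of p. DVL2, NKD2, DKK2, DKK4, DAAM1, PRICKLE1, ROR1, PORCN, WLS, SFRP4, KREMEN2, APCDD1, PPARD, BIRC5, CCND1 and CD44 were named after their values were seen. Ratio intervals and the floor cover counting error only, since PCR reads without molecular identifiers are not independent molecules. The fits were tested on simulated data.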

Additional observations from a re-analysis of the deposited data

How the results depend on the processing

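With the replicate number as a block (replicate block), 19 members were called and 18 of them were the same genes, WNT10B giving way to WNT16, and the other members kept their calls. The numbers share no stated origin, and same-numbered libraries deviated from their group means with a correlation of −0.113. A crossed pairing, chosen after seeing the data, called 22 members, 4 of them higher, beside 53% higher of all genes it called.

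With glmTreat, which asks for a log2 change above 1, the calls covered 9 members, 8 lower and 1 higher, 11 genes of the wider list and 3 targets. Over all 16417 tested genes glmTreat called 3386, and 60.7% of those were higher. Requiring 10 counts in every library called 11 members lower and 5 targets and gave a median log2 fold change of −0.30, since AXIN2, RNF43, WNT10A, WNT11, WNT6 and WNT9A were no longer tested. Members called higher numbered 4 with the edgeR exact test, 5 with the GC-content offset, 6 with the A-content offset and 6 with that offset and the block. Each of these fits called 21 members. Of all genes they called, 53.1%, 54.6%, 55.1% and 54.8% were higher, in that order. The median log2 fold change of the members was −0.32 with the A-content offset, with or without the block, and −0.79 to −0.51 with a library left out. Over all tested genes the median moved by 0.148 with the A-content offset, 0.114 with the GC-content offset and −0.102 with no filter.

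Values that reversed belonged to members that were not called. With the GC-content offset these were FZD4 (0.027), FZD6 (−0.39), LRP6 (−0.21) and TCF7 (0.26), and with no filter LRP6 (−0.028). With the A-content offset, and then also with the block, they were DVL3 (0.026 and 0.014), FZD4 (0.22 and 0.22), TCF7 (0.27 and 0.27), TCF7L2 (0.13 and 0.12) and WNT7B (0.11 and 0.075). With a library left out FZD6 ran from −0.17 to 0.80, LRP6 from −0.42 to 0.64, TCF7L2 from −0.37 to 0.034 and WNT7B from −0.73 to 0.10. The cause was not tested. FOXK2 stayed under control in each alternative and passed the threshold in 0 of them. DESeq2 size factors or library size alone moved no count by over 1.5 times. RNF43, AXIN2 and the untested ligands had so few counts that depth limits their values, and 2 libraries per group limit all of them.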
